A study of Mus musculus with 383 samples.

Results

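Galanin is a neuropeptide, and the 4 genes described here are Gal, which encodes the galanin precursor, and Galr1, Galr2 and Galr3, which encode its receptors. They were taken by name from a table of read counts of 29779 genes, over nuclei in which at least 1000 genes had a read. Gal, Galr1 and Galr2 were read from it, so 3 of the 4 genes were described. Galr3 was not analysed here.

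The nuclei came from the vagal dorsal motor nucleus (DMV), the brainstem nucleus whose preganglionic neurons supply the gut and other viscera. All came from male Chat-IRES-Cre mice on a C57BL/6 background, so that Cre recombinase was limited to cells that express the choline acetyltransferase gene. At 10 weeks of age the mice had 100 nL of the Cre-dependent virus AAV9-DIO-H2b-mCherry injected into the DMV, and tissue was taken 16 days later. The series gives the age of the mice as 12 weeks. Tissue was pooled, the number of animals was not given in the sources used here, and the dissection notes speak of sections around the SCN although the tissue is named as the DMV. Nuclei positive for NucBlue, a DNA dye, and for mCherry were sorted singly into 96-well plates and sequenced by Smart-seq2, which copies whole transcripts, with 22 amplification cycles. Every nucleus therefore carried the same transgene, virus and treatment, and there was no untreated or uninjected group. Because the labels name no animal, all nuclei together counted as 1 sample, and no test between groups of nuclei was run.

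Of 383 nuclei, 316 (82.5%) passed the filter, with 1590 to 4699420 reads (median 1440075) and 1040 to 16623 genes with a read (median 11234.5). Chat, which encodes the acetylcholine-synthesising enzyme and whose locus drives Cre, had a read in 304 of the 316 (96.2%). Here and below, levels are given as CPM, a gene's reads per 1000000 reads. Clustering without galanin genes or the other listed genes gave 294 visceral motor-like nuclei, the kind for which the DMV is known, and 22 somatic motor-like nuclei. These names rest on fixed markers: the mean share of nuclei with a read of the visceral markers was 37.1% to 76.9% in the 10 visceral clusters of this first clustering and 12.7% in the somatic cluster. That of the somatic markers was 3.75% to 18.9% and 38.6%. Tbx20, which encodes a T-box factor, was one of those visceral markers. It had a read in 92.5% of visceral and 40.9% of somatic motor-like nuclei, a difference that the naming itself used. Astrocyte markers were read at a mean share of 18.5% to 44.7% in the visceral clusters and 34.8% in the somatic cluster, and the part of such RNA in the values below was not tested.

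Galanin is cut from a larger precursor in the secretory pathway, stored in dense-core granules and released beside the classical transmitter. GALR1 and GALR3 couple mainly to inhibitory G proteins, which lower cAMP and open potassium channels, whereas GALR2 also couples to Gq and phospholipase C. In many neurons galanin is known to dampen firing and transmitter release, and its gene is known to be induced after axon injury. In the gut it is known as a peptide of nerves that alters smooth muscle contraction.

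The sequence that names Gal is the stretch of its reading frame that encodes the mature peptide. Bases 91 to 192 of the reading frame, counted from the A of the start codon, were the same in both annotated transcripts (GENCODE M21), although the encoded precursors were 124 and 141 residues long by their longest reading frame. The lower-case bases encode the 29 residues of galanin, residues 33 to 61 of the precursor. Capitals mark the flanking cleavage signals: the Lys-Arg codons before the peptide, and the codons of Gly, the amide donor, and Lys-Arg after it.
Gal peptide: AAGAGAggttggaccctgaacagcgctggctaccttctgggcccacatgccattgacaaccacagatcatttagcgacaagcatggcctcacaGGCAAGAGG

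By the annotation of GRCm38 (GENCODE M21), Gal (ENSMUSG00000024907.7) lies at chr19:3409915-3414544 on the minus strand, with 788 exonic bases in a gene of 4630 bases. Galr1 (ENSMUSG00000024553.8) lies at chr18:82392380-82406777 on the minus strand, with 2987 exonic of 14398 bases. Galr2 (ENSMUSG00000020793.5) lies at chr11:116280939-116283938 on the plus strand, with 2456 exonic of 3000 bases. None of the 3 genes overlapped another annotated gene, on either strand.

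Gal was read in almost every nucleus, and its receptors in few. Gal had a read in 284 of 316 nuclei (89.9%, exact Clopper-Pearson 95% interval 86.0 to 93.0), and 274 nuclei (86.7%) held 5 reads or more. Galr1 had a read in 22 nuclei (6.96%, 4.41 to 10.4) and Galr2 in 12 (3.80%, 1.98 to 6.54). Thus the precursor was detected in most nuclei of the sort, and each receptor in fewer than 1 nucleus in 10. Summed over the nuclei, Gal reached 232 CPM (exact Poisson 95% interval 231.0 to 234). The same measure was 0.860 (0.779 to 0.948) for Galr1 and 0.344 (0.293 to 0.401) for Galr2. All these intervals cover counting error only: reads were amplified and carried no molecular identifiers, and variation between animals is not covered.

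Levels of different genes are compared per kilobase. Per kilobase of exon, summed Gal stood at 295 CPM, Galr1 at 0.288 and Galr2 at 0.140, so the precursor was 1024-fold above Galr1 and 2107-fold above Galr2. Nuclei hold unspliced RNA, and whether introns were counted was not given in the sources used here. Per kilobase of the whole gene the ratios were 840-fold and 438-fold. The order of the receptors depended on that choice: Galr1 was 2.06-fold above Galr2 per exonic kilobase and 0.522-fold of it per kilobase of gene. The precursor stood above both receptors on either scale.

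Single nuclei varied widely in Gal. Over the 316 nuclei, reads of Gal ran from 0 through a median of 290.5 to 1437, and CPM from 0 through a median of 203 to 49496. The quartiles were 59.8 and 379 CPM. The highest value came from a shallow nucleus, number 338, in which 535 of 10809 reads (4.95%) fell on Gal and 1 on Chat. The next were nucleus 304, with 29 of 9940 reads, and nucleus 173, with 245 of 138912 reads. The mean over nuclei was 425 CPM with nucleus 338 and 269.7 without it, while the summed level gave each nucleus weight by its depth. Gal moved weakly with depth. Over the 316 nuclei Spearman's rho of Gal CPM with total reads was -0.18, and that of raw Gal reads with total reads was 0.17. These correlations are descriptions, over nuclei of 1 pool.

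Visceral motor-like nuclei held 109760 of the 110216 Gal reads. Gal had a read in 278 of 294 visceral nuclei (94.6%, 91.3 to 96.9) and 6 of 22 somatic nuclei (27.3%, 10.7 to 50.2). With each nucleus thinned at random to 500000 reads, which left out 21 shallower visceral nuclei and no somatic nucleus, the counts were 259 of 273 (94.9%) and 4 of 22 (18.2%, 5.19 to 40.3). Visceral nuclei ranged from 0 to 49496 CPM with a median of 227, and somatic nuclei from 0 to 243 with a median of 0. The ranges overlapped, but the median somatic nucleus had no read. Median depth was 1431008.5 reads in visceral and 1646059.5 in somatic nuclei.

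**Figure D1:**
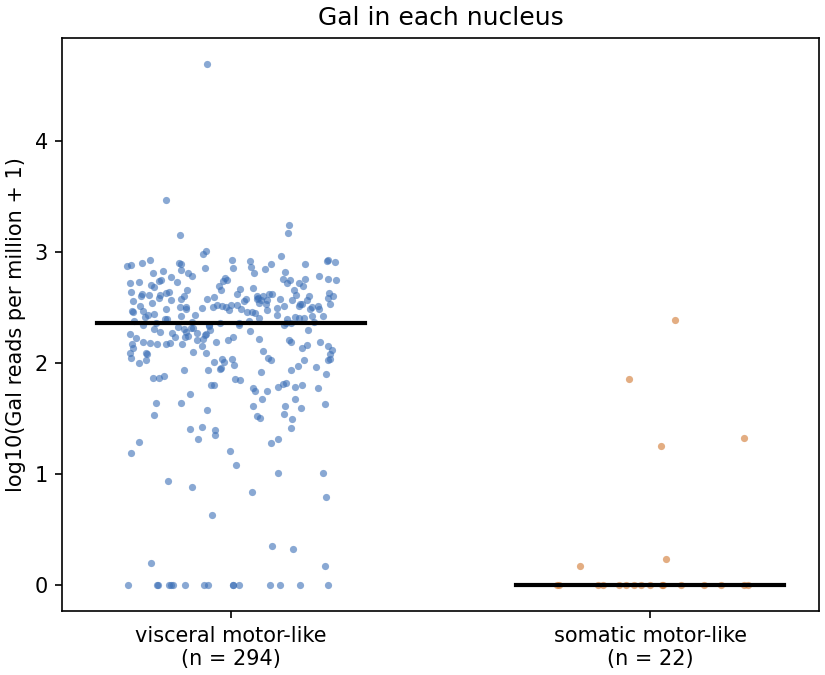
Gal in each of the 294 visceral and 22 somatic motor-like nuclei, as log10 of CPM plus 1, with each point a nucleus and the bar at the class median. The visceral median corresponds to 227 CPM and the somatic median is 0, with 6 somatic nuclei above 0.

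In summed reads, Gal stood at 251 CPM in visceral nuclei and 12.4 (11.3 to 13.6) in somatic nuclei, a 20.3-fold difference. Of 18798 genes with a read in at least 10% of nuclei, 12.0% were at least 4-fold higher in visceral and 2.08% at least 4-fold lower. A ratio at least as high as that of Gal was found in 585 of these genes (3.11%). The filter counts nuclei of both classes together, so a gene read in somatic nuclei alone cannot pass it. Among 19751 genes read in at least 10% of either class, 2359 were at least 4-fold higher and 636 at least 4-fold lower in visceral nuclei. The median gene was 0.23 higher in visceral nuclei on the log2 scale, and with size factors that take out this shift (0.22 on the log2 scale) the Gal ratio was 17.4-fold. The somatic total rested on few nuclei. The 6 somatic nuclei held 255, 123, 46, 30, 1 and 1 reads of Gal, so 1 nucleus supplied 55.9% of them. Without it the ratio was 44.7-fold, and without nuclei numbered 289 to 384, which held the nuclei with 255 and 123 reads, it was 94.6-fold. None of these 6 nuclei had a read of Adcyap1, the gene for the peptide PACAP, and 1 of them had a single read of Tbx20.

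For the same classes, Adcyap1 stood 553-fold higher in visceral nuclei, with 78835 visceral and 12 somatic reads, all 12 in 1 nucleus. Nos1, the gene of the neuronal enzyme that makes nitric oxide, was 6.88-fold higher, and Chat was 1.45-fold higher in somatic nuclei. Gal thus differed in the direction of Adcyap1 and Nos1 and not in that of Chat.

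Within the visceral class, Gal was graded. No read was found in 16 of the 294 nuclei (5.44%), 1 to 4 reads in 8 (2.72%), 5 to 99 in 48 (16.3%), 100 to 499 in 128 (43.5%) and 500 or more in 94 (32.0%). The 16 visceral nuclei without Gal were shallower, with 1590 to 2495356 reads and a median of 914586, against a median of 1440332 in the 278 with Gal. They also lacked other genes of the class more often: Chat was read in 11 of 16 (68.8%) against 97.5%, Tbx20 in 10 (62.5%) against 94.2%, Adcyap1 in 10 (62.5%) against 92.4%, and Nos1 in 9 (56.3%) against 96.4%. The part of depth in these differences was not tested.

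The visceral nuclei were clustered again without galanin genes, any listed gene or ribosomal protein genes. Gal thus took no part in building the 11 clusters, which held 12 to 46 nuclei. Gal was read in every cluster, at 500000 reads in 84.0% (cluster 5, 21 of 25 nuclei) to 100% (clusters 1, 2, 6, 9 and 11) of nuclei. That range of 16.0 points is below 40 points, a range that 33.3% of 17134 other genes outside the clustering reached. With Gal in 94.9% of these nuclei there was little room for such a range. The comparison thus does not show that Gal varied less than other genes. Chat, Nos1, Tbx20 and Adcyap1 also stayed below 40 points (19.4 to 32.3). The summed level spanned 4.54-fold, from 102 CPM in cluster 10 to 461 in cluster 1. A span of at least 4-fold was found in 63.9% of the 17134 genes. They include genes read in as few as 10% of visceral nuclei, and a gene with no read in a cluster counted as past 4-fold. Gal was read in most nuclei of every cluster, so that share does not tell whether its span was unusual among genes read as widely.

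By the median nucleus, cluster 6 (547 CPM, quartiles 344 and 604) and cluster 1 (477, quartiles 261 and 696) were highest. Cluster 2 followed with 320 (141 and 401), cluster 9 with 295 (215 and 434) and cluster 3 with 260 (175 and 353). In the middle were cluster 8 with 191 (49.7 and 339), cluster 11 with 166 (97.9 and 269) and cluster 5 with 134 (49.3 and 208). In all 10 neighbouring pairs of this order the quartile ranges overlapped, so neighbours did not stand apart. At the low end were cluster 10 with 94.0 (40.7 and 148), cluster 4 with 72.6 (11.9 and 178) and cluster 7 with 72.0 (32.0 and 109). The upper quartiles of these 3 clusters lay below the lower quartiles of clusters 1 and 6.

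**Figure D2:**
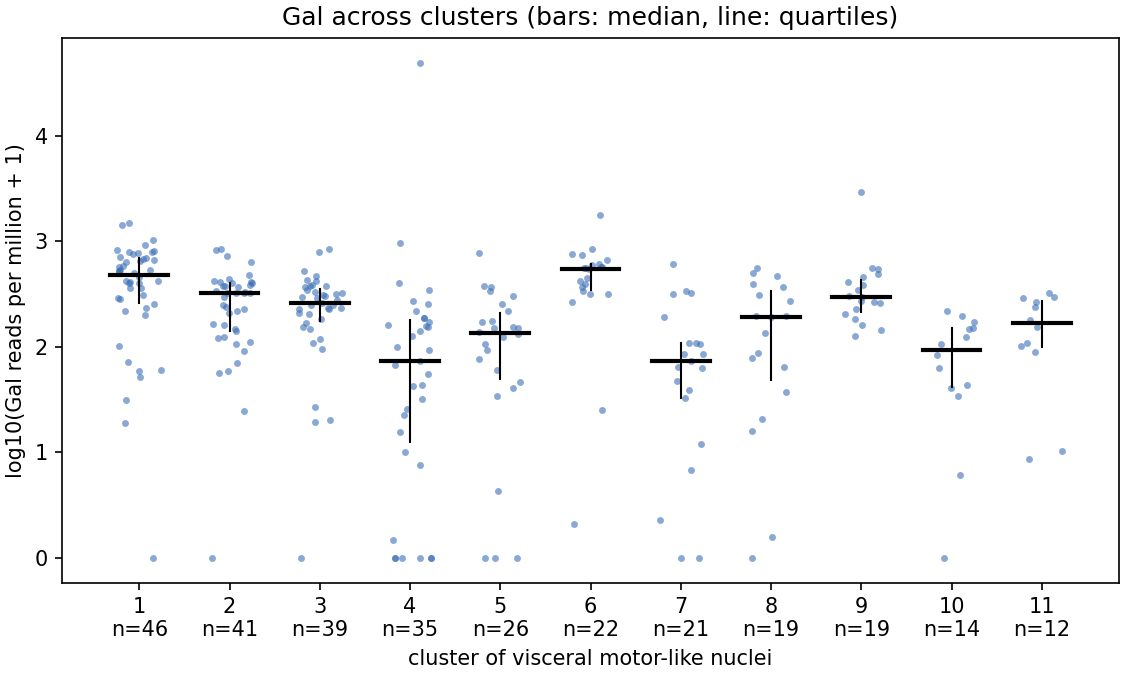
Gal in each visceral motor-like nucleus by cluster, as log10 of CPM plus 1, with each point a nucleus, the bar at the median and the line from the lower to the upper quartile. Medians run from 72.0 CPM in cluster 7 to 547 in cluster 6, and every cluster holds nuclei with Gal.

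Cluster 7, at the low end by its median nucleus, was the one in which Cck, the cholecystokinin gene, had a read in 73.7% of nuclei. Its median of 72.0 CPM was the value of nucleus 292, with 1 Gal read of 13889, and cluster 4 was close at 72.6. By summed Gal, cluster 10 was the lowest at 102 CPM. Cluster 7 had a summed Gal of 121 CPM and a summed Adcyap1 of 320. Cluster 6 was high in both, with 451 for Gal and 368 for Adcyap1. The orders over clusters were thus not the same, with cluster 7 low in Gal and high in Adcyap1. Cluster 1 was high in both (461 and 297). Clusters 4, 5, 10 and 11 were low in both, with 157, 132, 102 and 142 for Gal. Their Adcyap1 stood at 86.2, 79.6, 92.6 and 57.4. Cluster 4 had reads of many markers of other types: astrocyte markers at a mean share of 50.5%, somatic motor markers at 21.9%, and Chat in 80.6% of nuclei. The part of such reads in its low Gal was not tested. Cluster 4 lay at neither end of the 4.54-fold span of summed Gal, so leaving it out could not change that span.

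Genes whose counts followed Gal most closely were taken over the 273 visceral nuclei thinned to 500000 reads, among 14280 other genes read in at least 20% of them. The 5 highest Spearman correlations were 0.59 for 6330403K07Rik, 0.57 for Ywhah, which encodes a 14-3-3 protein, 0.56 for Syngr3, a synaptic vesicle protein, 0.56 for Ddc, the aromatic amino acid decarboxylase, and 0.56 for Dpysl2, a protein of axon growth. Over all these genes the median was 0.01 and the 99th percentile 0.43. Ddc was 24.8-fold higher in visceral than somatic nuclei, and it was among the genes used to cluster. The 12 genes of peptide processing and granules ran from -0.20 for Cadps to 0.52 for the granin Chgb, with a median of 0.32. Of them, 6 were above the 95th percentile of all genes (0.30). Tbx20 was at 0.31, Adcyap1 at 0.25, Nos1 at 0.13 and Chat at 0.03. Thinned Gal also moved with the percentage of reads on ribosomal protein genes (0.40) and on mitochondrial genes (0.38), and the part of RNA quality or cytoplasmic RNA in these correlations was not tested.

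Galr1, which encodes the receptor GALR1, was sparse and unevenly spread. The 22 nuclei with a read held 408 reads in all, with 1 to 174 reads per nucleus and a median of 5.5. Nucleus 352, in cluster 2, held 174 of them (42.6%). The next highest were nucleus 372 with 51 reads, nucleus 359 with 44, nucleus 285 with 27 and nucleus 169 with 26, while 6 nuclei had a single read. Without nucleus 352 the summed level was 0.495 instead of 0.860 CPM, and without nuclei numbered 289 to 384, which include it, 0.255 CPM. Of the 22 nuclei, 12 held 5 reads or more, 3.80% of all nuclei.

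Of the Galr1 nuclei, 21 were visceral (7.14%) and 1 was somatic (1 of 22, 4.55%, 0.115 to 22.8). Summed Galr1 was 17.1-fold higher in visceral nuclei, but the somatic total was 2 reads and the counting interval ran from 4.70 to 142. Across the visceral clusters Galr1 was read in 8 of 11, and its highest share at 500000 reads was 12.2% in cluster 1, while its highest summed level was 3.93 CPM in cluster 2. These counts are too small to order the clusters.

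Galr2, which encodes GALR2, was read in 12 nuclei, all of them visceral (4.08%). The 22 somatic nuclei had no read, which by the interval allows a share of up to 15.4%. Against a floor of 3 reads over the somatic class, Galr2 was at least 4.57-fold higher in visceral nuclei, and at least 3.09-fold without nucleus 157. The lower limits of the 95% counting intervals were 3.68-fold and 2.47-fold. The 12 nuclei held 163 reads, with 54 (33.1%) in nucleus 157, then 33 in nucleus 4, 18 in nucleus 47, 16 in nucleus 264 and 11 in nucleus 86. The others held 1 to 9. Without thinning, Galr2 was read in 5 of the 11 clusters. Its share was 11.4% in cluster 4 (4 of 35 nuclei) and 10.5% in cluster 8 (2 of 19). Counts this small cannot order the clusters. As with Galr1, a few nuclei carried most of the reads.

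**Figure D3:**
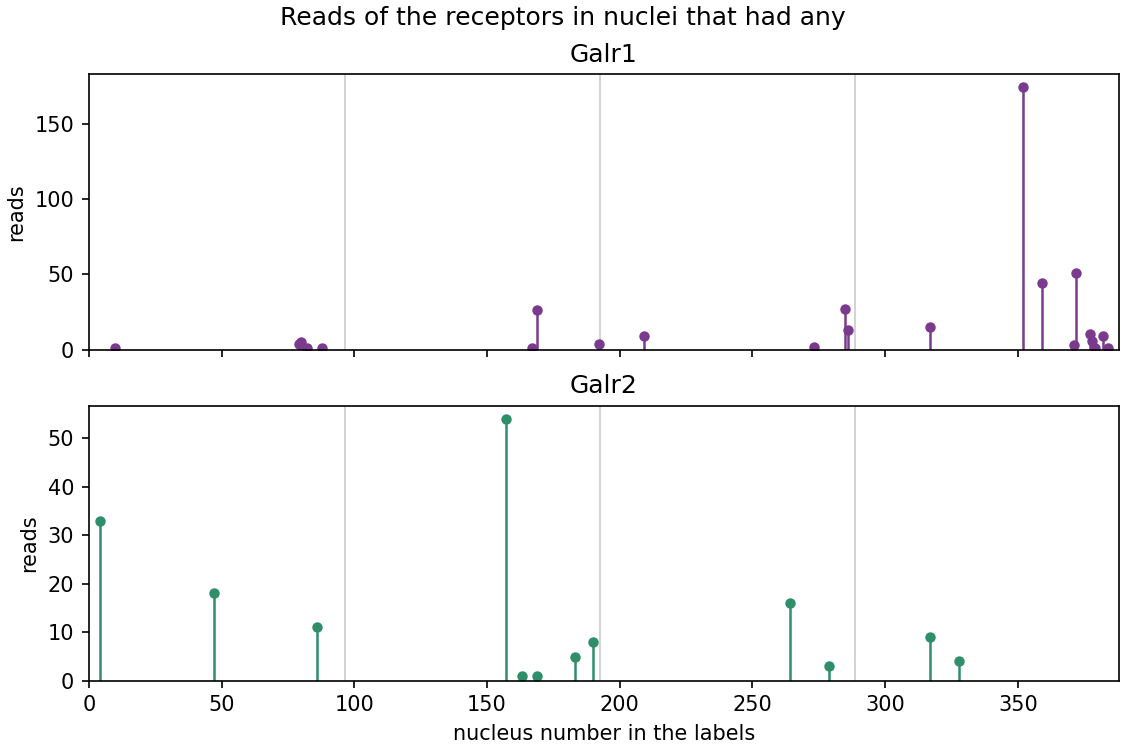
Reads of Galr1 and of Galr2 in each nucleus that had any, by the number of the nucleus in the labels, with grey lines every 96 numbers. Galr1 runs up to 174 reads and Galr2 up to 54, and the 22 Galr1 nuclei include 7 with numbers from 371 to 384.

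Most nuclei with a receptor also had the ligand gene. Of the 22 Galr1 nuclei, 19 had Gal (86.4%, 65.1 to 97.1), against 265 of 294 nuclei without Galr1 (90.1%). Of the 12 Galr2 nuclei, 10 had Gal (83.3%, 51.6 to 97.9), against 274 of 304 (90.1%). Both intervals include the share in nuclei without the receptor. With at least 5 reads required of both genes, Gal was found in 12 of 12 Galr1 nuclei and 5 of 8 Galr2 nuclei (62.5%, 24.5 to 91.5). In nuclei without that many Galr2 reads the share was 87.3%, and 92.7% among visceral nuclei, the class of all 8. The 3 Galr2 nuclei below that limit were numbers 264 and 86, with no Gal read, and number 4, with 1. Both receptors were read in 2 nuclei, numbers 169 and 317, and 32 nuclei (10.1%) had either.

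Labels number the nuclei, and blocks of 96 numbers were compared because the plates held 96 wells, although the labels do not tie numbers to plates. Gal was read in 88.8%, 91.3%, 86.5% and 92.7% of the nuclei in the 4 blocks. Its median over nuclei was 156, 329, 150 and 184 CPM, so numbers 97 to 192 were the highest. Galr1 was read in 5, 3, 4 and 10 nuclei of the blocks, with summed levels of 0.0933, 0.258, 0.428 and 2.95 CPM. Galr2 was read in 3, 5, 2 and 2.

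Of the 10 Galr1 nuclei in the last block, 7 had numbers 371 to 384. They held 81 of the block's 314 Galr1 reads, so its high level lay mainly in other nuclei, such as number 352. In numbers 371 to 384, a stretch chosen after its values were seen, Galr1 was read in 7 of 14 nuclei (50.0%, 23.0 to 77.0), against 15 of the other 302 (4.97%, 2.81 to 8.06). Gal was read in all 14 and Galr2 in none of the 14. In the stretch, 7 nuclei belonged to cluster 2, and median depth was 984617.5 reads against 1449209.5. Its nuclei also had a higher mean share with a read for most marker lists. Glutamatergic markers were at 31.4% against 17.1%, inhibitory markers at 31.4% against 19.9%, and serotonergic markers at 30.0% against 15.2%. Catecholaminergic markers stood at 64.3% against 50.9%, vascular markers at 38.1% against 29.7%, and oligodendrocyte markers at 39.3% against 30.6%. Visceral motor markers were higher too (61.4% against 54.8%), while somatic motor markers were at 10.7% against 11.1%. The part of these differences in the Galr1 count was not tested.

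Genes that act with galanin were described from lists, as counts, with shares of nuclei at 500000 reads. Of all genes tested, 51.6% were read in over 50% of visceral nuclei, and such genes are called widely read below. Of all genes in the table the share was 32.5%, the closer match to the lists, which include genes below the 10% limit. Over all lists 69 genes were tested between classes. Of these, 9 (13.0%) were at least 4-fold higher and 4 (5.80%) at least 4-fold lower in visceral nuclei, beside 12.0% and 2.08% of all genes tested.

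Relatives of galanin were sparse. Of Galp, the galanin-like peptide gene, Spx, the spexin gene, Kiss1 and Kiss1r, none was widely read in visceral nuclei. Galp was read in 10.3% and Spx in 16.5% of visceral nuclei, Kiss1 in 0.366%, and Kiss1r, the kisspeptin receptor, in 21.6%. In somatic nuclei the shares were 13.6% for Galp and 36.4% each for Spx and Kiss1r, and Kiss1 had no read. Summed Galp was 5.49-fold higher in visceral nuclei (522 against 8 reads, counting interval 2.77 to 12.8), although its share of nuclei was not higher there. Without cluster 4, where Galp was read in 48.4% of nuclei, the ratio was 1.68-fold. Per exonic kilobase, summed Gal was 172-fold above Galp and 196-fold above Spx, and per kilobase of whole gene 856-fold and 118-fold.

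The G proteins that the receptors couple to had broad coverage. Of 10 alpha subunit genes, 9 were widely read in visceral nuclei, among them Gnao1 (99.3%) and Gnaq (100%). Gna14, of the Gq family, was the lowest at 45.1% and was 10.1-fold higher in somatic nuclei. Of 17 effector genes, 11 were widely read. The potassium channel gene Kcnj3 was read in 98.2%, and Adcy2, an adenylyl cyclase, and Plcb1, a phospholipase C, each in 98.9%. Kcnj5, another channel subunit of the same family, was 16.4-fold higher in visceral nuclei, with reads in 2 somatic nuclei (23 reads). The adenylyl cyclases Adcy1 and Adcy8 were 7.70-fold and 8.39-fold higher in somatic nuclei. Of the 17 effector genes 64.7% were widely read, beside 32.5% of all genes in the table. The 51.6% given above covers only genes past the 10% limit, which 15 of the 17 passed.

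Of 6 genes for receptor kinases and arrestins, which end receptor signalling, all 6 were widely read in visceral nuclei, and Grk3 was 5.78-fold higher there. All 12 genes of peptide processing and granules were widely read. Cpe, which trims the cut peptide, and Pam, which makes the amide end, were read in 100% of visceral nuclei, and Pcsk2, a convertase, in 99.6%. Pcsk1, the other convertase, was 11.2-fold higher in visceral nuclei and was read in 36.4% of somatic nuclei.

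**Figure D4:**
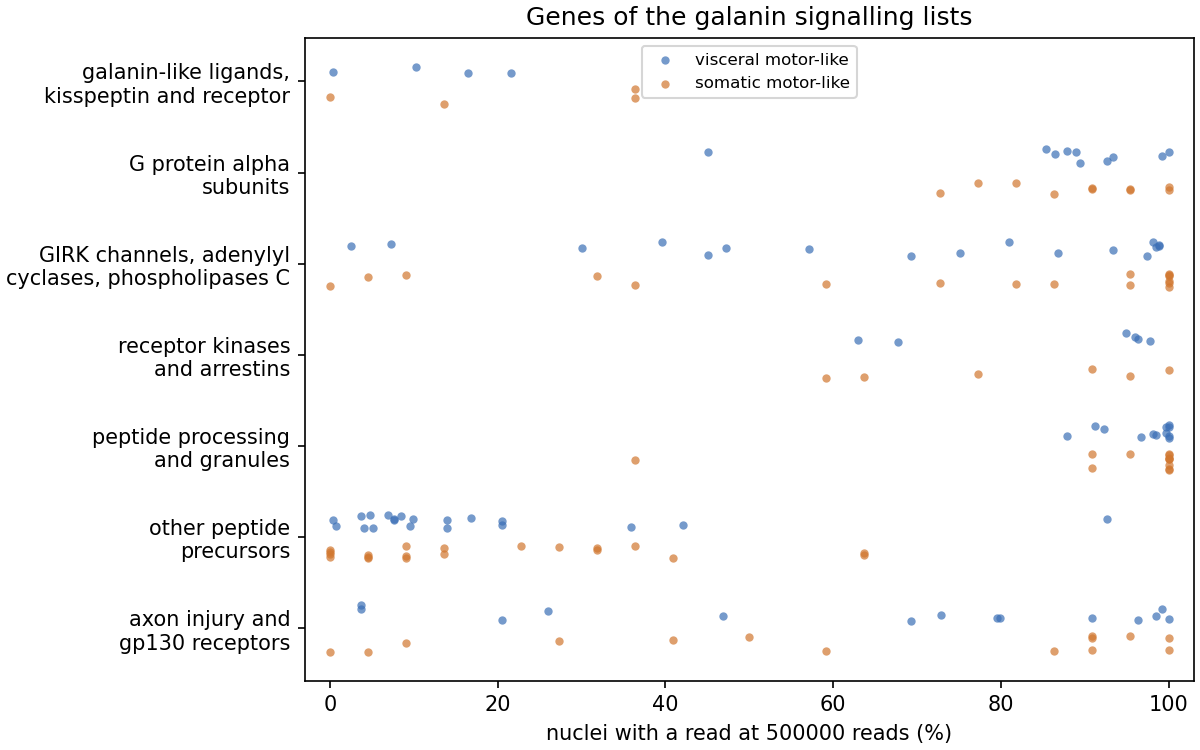
Share of nuclei with a read at 500000 reads for each gene of the lists, with visceral motor-like nuclei in blue and somatic motor-like nuclei in orange, and each point a gene. Processing genes of visceral nuclei lie between 87.9% and 100%, while most other peptide precursors lie below 50%.

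Among 20 other peptide precursor genes, Adcyap1 (92.7%) was the one widely read in visceral nuclei, beside Gal itself at 94.9%. Nmb, the neuromedin B gene, came next at 42.1%. Of 11 that were tested between classes, 4 were at least 4-fold higher in visceral nuclei: Adcyap1, Nppb, Pdyn and Crh. Nppb, the gene for a natriuretic peptide, had 7698 visceral reads and 1 somatic read, a ratio of 648 with a counting interval of 116 to 25604. Pdyn, the prodynorphin gene, had no somatic read and was at least 324-fold higher against a floor of 3 reads, with a lower counting limit of 263-fold. Crh, the corticotropin-releasing hormone gene, was 10.2-fold higher (1825 against 15 reads), with all 15 somatic reads in 1 nucleus. Penk, the proenkephalin gene, was 7.44-fold higher in somatic nuclei. The other 9 precursors were read in too few nuclei to enter that count. Among them 4 were more than 4-fold higher in somatic nuclei. These were Calcb and Calca, the CGRP genes (69.6-fold and 19.0-fold, each in 14 of 22 somatic nuclei). The others were Sst, the somatostatin gene (23.2-fold, in 5 of 22), and Ucn, the urocortin gene (21.4-fold, in 3 of 22). Calca was one of the markers that named the class. Summed Vip was 20.0-fold higher in visceral nuclei, but its shares were close, 9.89% of visceral and 9.09% of somatic nuclei (2 of 22). Npy, with no somatic read, was at least 21.6-fold higher in visceral nuclei against the floor. The list was chosen with results of these nuclei known, so these counts are descriptions.

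Of 14 genes of axon injury and of receptors that signal through gp130, 9 were widely read in visceral nuclei, among them Gap43, a growth cone protein, and Klf7 (99.3%). Atf3, a stress-induced transcription factor, was 32.8-fold higher in visceral nuclei (5446 against 14 reads) and 4.5-fold without cluster 4, where it was read in 77.4% of nuclei. Over the 273 thinned visceral nuclei Spearman's rho of Gal with Atf3 was -0.20, with Gap43 0.22 and with Ecel1, an injury-induced peptidase gene read in 98.5%, 0.49. Galp had its highest share in the same cluster as Atf3. The median log2 ratios between classes were -0.10 for the relatives of galanin, 0.21 for alpha subunits, -0.06 for effectors, -0.07 for kinases and arrestins, 0.09 for processing genes, 0.07 for other precursors and 0.45 for injury genes, beside 0.23 for all genes tested.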

How the data were processed

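Read counts for 383 single nuclei of the mouse DMV were used. The values are whole-number counts per gene, not normalised, as deposited by the authors. Per the submitters' processing notes the genome was GRCm38, and they list STAR, Picard, bcl2fastq, Seurat version 3 and edgeR without roles. Strand use, counting mode and annotation are not given in the sources used here.

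Nuclei with at least 1000 genes with a read were kept. With scanpy 1.11.5 counts were scaled to 10000, log-transformed and clustered (2000 variable genes, 15 components, 10 neighbours, resolution 1), with 86 listed genes held out. Mitochondrial genes were left out of both clusterings, and ribosomal protein genes (names starting with Rpl or Rps) of the second. Clusters were classed as visceral or somatic motor-like by the larger mean share over fixed marker lists, and visceral nuclei were clustered again. Clusters of at least 8 nuclei were compared. A gene was detected with at least 1 read. Shares between classes and clusters used nuclei thinned at random to 500000 reads. CPM is a gene's summed reads over all reads of the nuclei, times 1000000. Class ratios were counted over genes read in at least 10% of all kept nuclei. Ratios of the receptors and of listed genes below that limit are given as values. A floor of 3 reads over the class was used where it had none. Intervals at the 95% level are exact Clopper-Pearson or Poisson (scipy 1.17.1). No doublet caller was applied, since wells held single nuclei. The code for class ratios was tested on simulated counts. No 2 nuclei had identical counts.

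Named were the members, Chat, Tbx20, Nos1 and Adcyap1, the 5 genes nearest to Gal, and of each list the genes past 4-fold, or else the 3 of highest and the 1 of lowest share. Cck, Chgb, Cadps, Calca, Calcb, Sst, Ucn, Vip, Npy, Gap43, Ecel1, Klf7, Nmb, Spx, Kiss1, Kiss1r, Gnao1, Gnaq, Kcnj3, Adcy2, Plcb1, Cpe, Pam and Pcsk2 were named outside this rule, after their values were seen. The members and lists were chosen with earlier results of these data known. The receptors were read in too few nuclei for nearest genes to be named.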

Additional observations from a re-analysis of the deposited data

Results flagged for a closer look

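Gal was read in nuclei that the filter left out. Of the 67 such nuclei, 15 had a read of Gal (22.4%, exact Clopper-Pearson 95% interval 13.1 to 34.2). The flag used a fixed floor of 3 nuclei (4.48%), which is not an expected share. The 15 nuclei held 18 Gal reads in all and at most 2 each, and the median left-out nucleus had 2328 reads. Summed Gal was 47.0 CPM over the left-out nuclei, against 232 over the kept nuclei, and Chat 15.7 against 211. Chat was read in 5 of the same 67 nuclei (7.46%), Adcyap1 and Nos1 in 3 each, Tbx20 in 2, and Galr1 and Galr2 in none. The source of these reads was not tested.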

How the results depend on the processing

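Of 103 values recomputed under an alternative, 74 moved by less than their interval or within 1.5-fold for counts. The other 29 moved further. Among them, every Gal class ratio stayed higher in visceral nuclei. Some of the 74 could not have moved. The limit of 10% mitochondrial reads left out no nucleus (highest 4.82%), and cluster 4 held neither end of the cluster ranges of Gal. The interval of the Gal share range over clusters was also wide, from -21.9 to 36.1 points. The cause of the moves was not tested, except that the filter on low genes changes which genes are counted. Alternatives on whole-gene length, cluster 4, numbers 371 to 384, the somatic nucleus with the most Gal, the filter by class, and the lists were chosen after seeing the data. Summed Gal was 425 CPM as a mean over nuclei, and 201 to 248 leaving out each block of 96 numbers. Galr1 ran from 0.255 to 1.15 and Galr2 from 0.265 to 0.408 when a block was left out, and they were 0.495 and 0.232 without the nucleus with the most reads. The lowest Galr1 value left out numbers 289 to 384. The Galr1 share was 3.80% at 5 reads or more. Per kilobase of whole gene, Gal was 840-fold above Galr1 and 438-fold above Galr2. The Gal class ratio was 18.0-fold at 250000 reads, 15.3-fold at 1000000 reads, 17.4-fold with size factors, 12.5-fold to 94.6-fold leaving out a block, and 44.7-fold without the somatic nucleus with the most Gal. Without a filter on low genes, 4872 were at least 4-fold higher and 1874 lower in visceral nuclei, against 2258 and 391, and with the filter applied by class 636 were lower. Gal was in 100% of Galr1 nuclei at 5 reads or more, against 86.2% of the other nuclei. This reversed the order at 1 read, 86.4% against 90.1%. Both differences lay within the counting intervals. The Gal share difference between classes, 76.7 points, kept its direction at 67.3 to 81.7 points. No paired analysis was possible because the nuclei form 1 group without replicate animals. Sparse counts limit the receptors, and 22 somatic nuclei limit the class comparison.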
